A study of Mus musculus with 43 samples.

Results

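The Hox genes are homeobox transcription factors that sit in 4 clusters, Hoxa to Hoxd. The genes described here are those of the array whose symbol is Hox, a letter from a to d and a number with nothing after it. Each is represented by its brightest probe set that carries no other gene symbol. There were 33 such genes among 18184 genes with a probe set of their own, 9 of Hoxa, 9 of Hoxb, 7 of Hoxc and 8 of Hoxd. Probe sets shared by more than 1 Hox gene represent no gene here.

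Within a cluster the genes are numbered by paralogue, and low numbers are switched on early and towards the head while high numbers are switched on late and towards the tail. Members with the same number in different clusters descend from one ancestral gene and often act redundantly. In the urogenital system, posterior members pattern the ducts and the kidney that form beside the gonad, and gonadal somatic cells also transcribe Hox genes.

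Whole gonads of 43 mice, 1 mouse per Affymetrix MOE430 v.2 array, made up 15 groups of 3 arrays each, with 2 in both groups of E15 (embryonic day 15). The study asked which genes depend on Foxl2, a forkhead factor of ovarian somatic cells, and on Wnt4, a secreted signal of the fetal ovary, and how far ovaries that lack them approach testes. Testes were taken at E13 and at P0, the day of birth. Those of P0 came from mice that lacked Wnt4, per the methods. Ovaries without a named homozygous mutation were taken at E13 (labelled Foxl2+/-, wild-type in the methods), E15 (Wnt4+/-), E16 and P0. Foxl2-/- ovaries were taken at E13, E16 and P0, and Foxl2+/- ovaries at E16. Ovaries lacking Wnt4 were taken at E15 and, with Foxl2+/-, at P0. Further P0 groups were Wnt4-/- Foxl2-/-, KitWvWv with Foxl2+/-, and KitWvWv with Foxl2-/-. KitWvWv is a weak allele of the stem cell factor receptor, and ovaries with it are poor in germ cells. The mutations were in the whole animal. Per the methods, the E15 groups were of another mixed strain background than the other groups. A comparison of E15 with other ages is thus also one between strains, and none was tested. Descriptions over all 15 groups include the E15 groups.

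Signals are given as intensities divided by the mean of an array, which is the same for every array. Foxl2 itself was 14.6 to 16.8 in newborn ovaries and 1.36 to 2.42 in Foxl2-/- ovaries of that age. Array medians were 0.18 to 0.295 of that mean, and replicates correlated at 0.922 to 0.982 over 41 pairs. Changes are differences of log2(signal + 0.01) with their standard error (SE), from limma fitted to all arrays at once, and a gene was called at a Benjamini-Hochberg adjusted p under 0.05. Signals of different probe sets are on different scales, so levels are compared between groups for 1 gene and not between genes.

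As a description of low signal, each group mean was set beside the 95th percentile of 44 probe sets of olfactory receptor genes in that group. By this mark 13 Hox genes lay above the reference in all 15 groups, 7 in no group and 13 in some. The 13 were Hoxa3, Hoxa9, Hoxb3, Hoxb4, Hoxc4, Hoxc5, Hoxc6, Hoxc8, Hoxc9, Hoxc10, Hoxd8, Hoxd9 and Hoxd10. They include 6 of 7 measured Hoxc genes. All 4 genes with number 13 (Hoxa13, Hoxb13, Hoxc13 and Hoxd13) were among the 7 under the reference everywhere, with Hoxb1, Hoxb2 and Hoxb7. Per group, 16 to 22 of 33 lay above it.

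**Figure D1:**
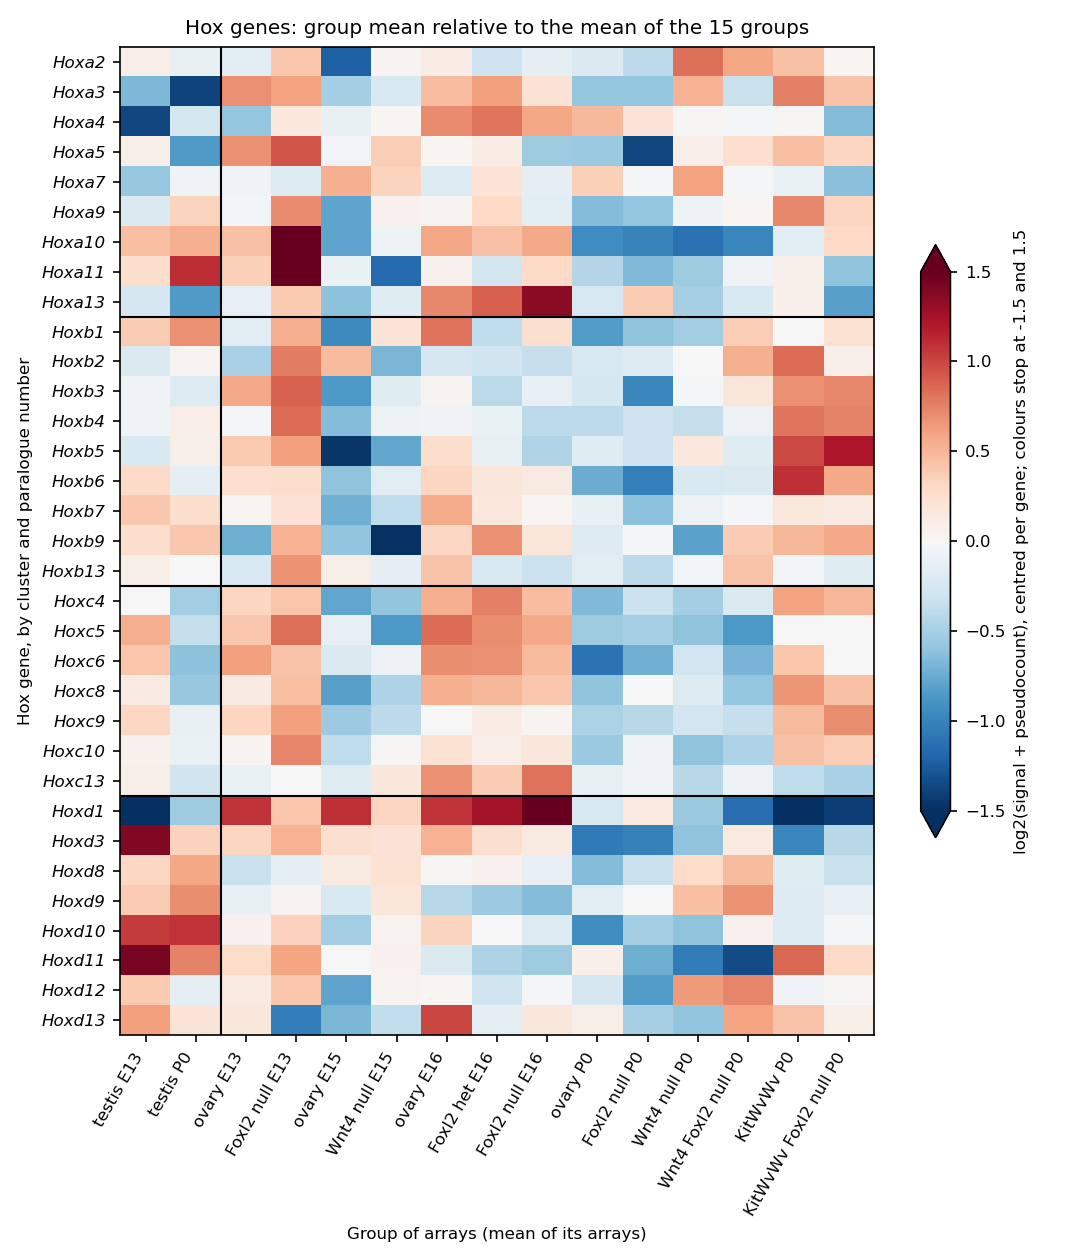
Mean log2(signal + pseudocount) of each group for the 33 Hox genes (rows, by cluster and paralogue number) in the 15 groups (columns), centred on the mean of the gene over the groups; red is higher and blue lower. Hoxd10 is reddest in the testes, and Hoxc4, Hoxc6 and Hoxc8 are bluer in the newborn than in the E16 and the KitWvWv ovaries.

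The promoters of 3 neighbours of the Hoxd cluster, Hoxd10, Hoxd9 and Hoxd8, are shown because these genes were all higher in the testis at P0. They run from 250 bases before to 50 after the start of the transcript, on the plus strand of chromosome 2, from RefSeq on GRCm38.p6, at chr2:74691641-74691940, chr2:74697513-74697812 and chr2:74704365-74704664. Capitals mark matches to 4 sequences searched on both strands, of which only the first occurred here.
Hoxd10: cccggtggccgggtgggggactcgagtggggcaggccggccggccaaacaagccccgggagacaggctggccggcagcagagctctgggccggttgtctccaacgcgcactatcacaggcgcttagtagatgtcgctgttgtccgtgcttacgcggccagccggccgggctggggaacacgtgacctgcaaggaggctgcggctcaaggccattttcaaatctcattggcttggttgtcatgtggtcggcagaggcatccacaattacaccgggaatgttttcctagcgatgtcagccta
Hoxd9: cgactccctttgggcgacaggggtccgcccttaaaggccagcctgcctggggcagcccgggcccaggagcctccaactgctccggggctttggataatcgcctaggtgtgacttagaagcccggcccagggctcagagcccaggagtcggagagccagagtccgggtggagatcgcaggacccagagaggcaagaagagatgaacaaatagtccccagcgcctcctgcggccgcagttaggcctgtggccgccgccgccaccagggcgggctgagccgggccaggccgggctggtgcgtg
Hoxd8: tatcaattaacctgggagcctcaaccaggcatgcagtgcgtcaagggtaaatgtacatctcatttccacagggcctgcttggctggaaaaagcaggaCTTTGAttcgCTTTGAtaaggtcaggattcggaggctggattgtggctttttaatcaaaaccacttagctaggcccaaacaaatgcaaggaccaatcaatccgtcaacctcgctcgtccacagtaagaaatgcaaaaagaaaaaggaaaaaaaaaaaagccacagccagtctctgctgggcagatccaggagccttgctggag
The 4 sequences were CTTTGA, the core of TCF/LEF sites (factors downstream of canonical Wnt signals), TGATNNAT, a joint site of PBX and HOX proteins, AACAAT, a SOX core, and GTAAACA, a forkhead core. The Hoxd8 window held 2 matches to CTTTGA, and the Hoxd9 and Hoxd10 windows held none of the 4. Over all 32851 promoters of this length, 16% held CTTTGA, 8.85% TGATNNAT, 10.7% AACAAT and 3.65% GTAAACA. Of 21 promoters found for 19 Hox genes, 4 held CTTTGA (Hoxa10, Hoxa11, Hoxd8 and Hoxd12), 3 TGATNNAT (Hoxa2, Hoxb1 and Hoxd11) and 0 either of the others. The dinucleotide CG occurred 22 times in the Hoxd10 window, 20 in that of Hoxd9 and 6 in that of Hoxd8, against a median of 15 over the Hox promoters and 7 over all. A match says only that the letters are present.

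Between the sexes, the called differences at P0 were mostly in the Hoxd cluster. The P0 testes lacked Wnt4 and the P0 ovaries were not so labelled, so sex and Wnt4 cannot be told apart in this comparison. Against the Wnt4-null ovary, Hoxd10 of these was called, and Hoxd8, Hoxd9, Hoxd3 (0.94 ± 0.35, adjusted p = 0.073) and Hoxb1 (1.21 ± 0.46, 0.082) were not. At P0 the testis was higher for Hoxd10 by 2.01 ± 0.29 (adjusted p = 2.03e-06), Hoxd8 by 1.23 ± 0.17, Hoxd9 by 0.86 ± 0.19, Hoxd3 by 1.41 ± 0.35 and Hoxb1 by 1.53 ± 0.46, in log2. These 5 rose and 0 fell, of 33 measured, where 28.9% of all genes were called. At E13 Hoxd10 rose by 0.99 ± 0.29 and Hoxd8 by 0.64 ± 0.17 in the testis, while Hoxd1 fell by 2.80 ± 0.39 and Hoxa3 by 1.36 ± 0.40, 4 called genes where 8.14% of all genes were called. The E13 ovaries were labelled Foxl2+/-, so by the labels Foxl2 genotype may differ along with sex there. The Hoxd1 means lay under the olfactory reference in both groups (0.101 against 0.165 in ovaries, 0.00595 against 0.155 in testes), so the size of its difference is not a measured fold.

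Hoxd10 shapes the hindlimb and the lumbar spinal cord. Its signal was 2.98, 2.17 and 2.21 in the testes of E13 and 2.12, 2.82 and 2.52 in those of P0. In the ovaries it was 1.56, 1.11 and 1.03 at E13 and 0.82, 0.423 and 0.639 at P0. The arrays of the sexes did not overlap at either age, and no ovary of any genotype reached the lowest testis of P0. Hoxd8, the next gene but one, gave 4.34, 3.62 and 3.54 in E13 testes and 5.40, 3.99 and 4.49 in P0 testes. The ovaries gave 3.14, 2.24 and 2.07 at E13 and 1.83, 1.85 and 2.23 at P0, below every testis of the same age. A second Hoxd8 probe set changed by 1.04 ± 0.18 at E13 and 1.49 ± 0.18 at P0. Hoxd9, which lies between them and acts in limb and axial patterning, gave 10.5, 9.01 and 9.89 in E13 testes and 11.7, 13.6 and 11.3 in P0 testes, against 8.20, 5.61 and 7.2 and then 8.51, 5.90 and 5.97 in the ovaries. Its arrays did not overlap at E13 either, but the change there, 0.50 ± 0.19, did not pass the test (adjusted p = 0.12).

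Hoxd11, a gene of forelimb and kidney patterning, gave 0.739, 0.433 and 0.657 in E13 testes and 0.309, 0.208 and 0.285 in E13 ovaries, a change of 1.14 ± 0.42 that was not called (adjusted p = 0.11). At P0 the testes gave 0.374, 0.399 and 0.333 and the ovaries 0.318, 0.126 and 0.292 (0.67 ± 0.42, adjusted p = 0.25), apart but not called. Hoxd3, which patterns the first neck vertebrae, gave 0.234, 0.151 and 0.153 in P0 testes and 0.054, 0.0432 and 0.0909 in P0 ovaries. At E13 it gave 0.379, 0.427 and 0.324 in testes and 0.206, 0.252 and 0.1 in ovaries. Both sets of arrays were apart, and the change was called at P0. The Hoxd3 mean of the P0 ovaries lay under their olfactory reference of 0.0885. The size of its P0 difference is therefore not a measured fold.

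Hoxb1, a gene of hindbrain patterning, was under the olfactory reference in every group. It gave 0.0534, 0.0808 and 0.102 in P0 testes against 0.016, 0.0118 and 0.0371 in P0 ovaries. Hoxd1, known from sensory neurons, was near 0 in the testes of E13, at 4.95e-05, 0.00882 and 0.00897, and was 0.0651, 0.138 and 0.0996 in the ovaries. At P0 the sexes gave 0.0198, 0.0238 and 0.0323 in testes and 0.042, 0.0251 and 0.0331 in ovaries and overlapped. The sex difference of Hoxd1 changed between E13 and P0 by 2.51 ± 0.55 (adjusted p = 0.0031), the 1 Hox gene called in that test, where 8.83% of all genes were called. All 4 groups behind this value lay under the olfactory reference for Hoxd1, so it is a difference between probe signals and not a measured fold. The P0 testes lacked Wnt4 and the E13 testes were not so labelled, so age and Wnt4 cannot be told apart in it. The E13 ovaries in it were also labelled Foxl2+/-. Hoxd1 lay above the reference in 1 group, Foxl2-/- ovaries of E16. Leaving out dim probe sets removed Hoxd1 itself. No Hox gene was then called in the change of the sex difference, which does not bear on the Hoxd1 call.

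Hoxa3, a gene of pharyngeal arch derivatives, ran the other way from Hoxd8 to Hoxd10 on its brightest probe set. It gave 0.745, 0.701 and 0.732 in E13 testes and 3.34, 1.57 and 1.28 in E13 ovaries, where 1 ovary stood above the others. Other probe sets of Hoxa3 changed by -0.94 and -0.08 at E13 and were not called by limma (adjusted p = 0.125 and 0.968). The E13 call of Hoxa3 was lost with the mean over its probe sets. At P0 the brightest probe set of Hoxa3 gave 0.28, 0.945 and 0.314 in testes and 1.04, 0.524 and 0.864 in ovaries, which overlapped. Of the 8 measured Hoxd genes, 7 were higher in the testis at E13 and 7 at P0, with medians of 0.57 and 0.76. Of the 9 Hoxa genes 2 and 4 were higher, with medians of -0.18 and -0.30. Of the 9 Hoxb genes 6 and 9 were higher, with medians of 0.27 and 0.38. Of the 7 Hoxc genes 4 and 6 were, with medians of 3.1e-05 and 0.18. Over all 33 Hox genes 19 were higher at E13 and 26 at P0, so the direction at P0 was not particular to Hoxd. Of the 33, 7 lay under the olfactory reference in every group. The median over all Hox genes was 0.02 at E13 and 0.29 at P0, against -0.04 and 0.07 over all genes. After quantile normalization the Hox medians were -0.03 and 0.10 and those of all genes -0.06 and -0.04.

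**Figure D2:**
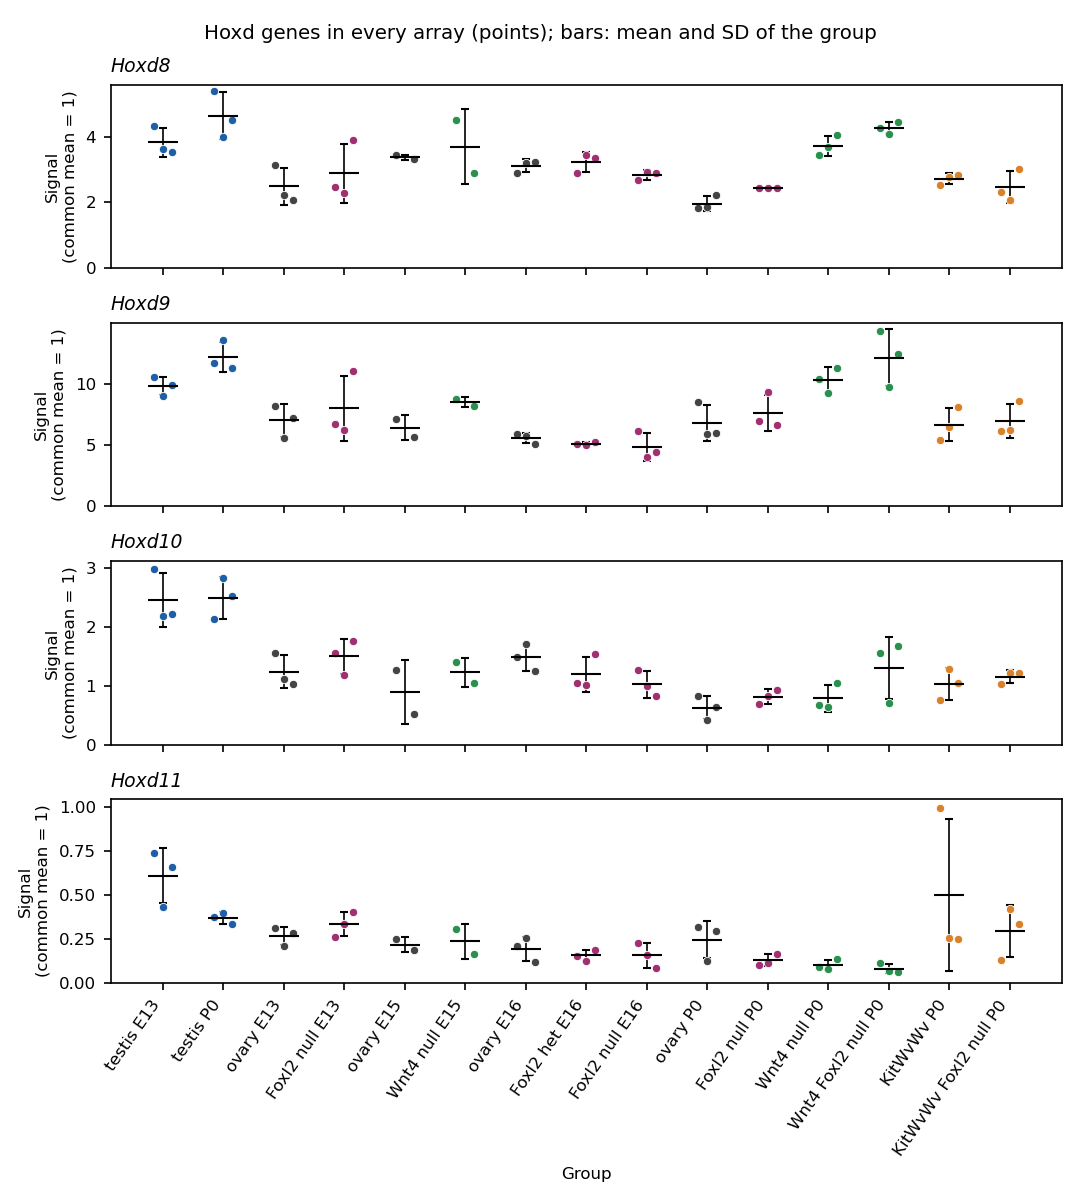
Signal of Hoxd8, Hoxd9, Hoxd10 and Hoxd11 (intensity divided by the mean of the array, linear axis from 0) in each array (points) of the 15 groups, with the mean and SD of the group. Hoxd10 is above 2 in every testis and below it in every ovary, and Hoxd8 and Hoxd9 are high in the testes and in both Wnt4-null groups of P0.

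At E13, Hoxd10 lost its call without any 1 of testis arrays 1 to 3 or ovary arrays 2 and 3 (adjusted p up to 0.159), Hoxd8 without testis array 1 or ovary arrays 2 and 3 (up to 0.127), and Hoxa3 without any testis array or ovary array 1 (up to 0.211). The count of 4 became 1 without testis array 1 and 2 without testis array 2, testis array 3 or ovary array 3. At P0, Hoxd8, Hoxd9, Hoxd10 and Hoxd3 kept their calls without any array, Hoxb1 lost its call without testis array 3 or ovary array 2 (adjusted p up to 0.0784), and the count of 5 became 9 without testis array 1. In whole gonads, fewer cells of a type and less RNA per cell cannot be told apart. Markers of testis cells moved with these genes: 3 of 4 Sertoli markers and 3 of 3 Leydig markers rose at both ages, and 2 of 3 markers of interstitial stroma rose at E13 and 3 of 3 at P0. The summed stroma signal was 16.5 to 20.1 in E13 testes and 10.8 to 15.8 in E13 ovaries, then 19.2 to 24.2 and 8.49 to 13.3 at P0. Over all genes 8.14% were called at E13 and 28.9% at P0. The part of the marked cells in the Hox differences was not tested.

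Newborn ovaries that lacked Wnt4 were higher than newborn ovaries in Hoxd8 and Hoxd9 and lower than the testis in Hoxd10 and Hoxd11. At P0, against ovaries of P0, Hoxd8 rose by 0.92 ± 0.17 (adjusted p = 0.00017), Hoxd9 by 0.61 ± 0.19 (0.025) and Hoxc6 by 0.82 ± 0.28 (0.0498). These 3 rose and 0 fell, where 16.9% of all genes were called. Both groups compared differ also in Foxl2, since the Wnt4-null ovaries were Foxl2+/-.

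Hoxd8 gave 3.44, 3.69 and 4.04 in Wnt4-null ovaries of P0, above the 3 P0 ovaries (1.83 to 2.23) and overlapping the P0 testes (3.99 to 5.40). Hoxd9 gave 10.4, 9.20 and 11.3, above the ovaries (5.90 to 8.51) and reaching the lower edge of the testes (11.3 to 13.6). The second Hoxd8 probe set rose by 1.04 ± 0.18. Against the P0 testis, the Wnt4-null ovary differed by 0.31 for Hoxd8 (95% interval -0.03 to 0.65) and by 0.24 for Hoxd9 (-0.14 to 0.63), and neither was called.

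Hoxd10 stayed at 0.67, 0.639 and 1.05 in the Wnt4-null ovaries. The testis was higher by 1.68 ± 0.29 (adjusted p = 0.00015), and Hoxd11, at 0.0886, 0.0802 and 0.136 in those ovaries, was higher in the testis by 1.79 ± 0.42 (0.0043). Hoxb9, which patterns the thorax, was also higher in the testis, by 1.21 ± 0.37, and Hoxa3 was lower by 1.91 ± 0.40. These 3 rose and 1 fell, where 13.9% of all genes were called. Under quantile normalization the split was 2 rose and 3 fell. In Hoxa3 the Wnt4-null ovaries gave 1.03, 2.30 and 1.98, above every P0 testis. Against P0 ovaries Hoxd11 changed by -1.12 ± 0.42 and was not called (adjusted p = 0.076). The comparisons of newborn groups share arrays.

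At E15 the Wnt4-null ovaries gave 4.50 and 2.90 for Hoxd8 and 8.76 and 8.20 for Hoxd9, and their controls gave 3.43 and 3.32, and 7.14 and 5.68. The Hoxd9 arrays were apart and those of Hoxd8 overlapped. The changes were 0.10 ± 0.21 and 0.41 ± 0.23. limma called 0 of 33 Hox genes at E15 (2 at an unadjusted p under 0.05), where 2.1% of all genes were called. With array weights the count was also 0.

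In Wnt4-/- Foxl2-/- ovaries Hoxd8 was 4.27, 4.08 and 4.44, Hoxd9 14.3, 9.70 and 12.4, Hoxd10 1.55, 0.701 and 1.67 and Hoxd11 0.112, 0.067 and 0.0647. Against the Wnt4-null ovary, Hoxd8 changed by 0.20 (95% interval -0.14 to 0.54) and Hoxd9 by 0.22 (-0.16 to 0.61). limma called 0 Hox genes (5 at an unadjusted p under 0.05), where 0.924% of all genes were called. Array weights gave 1 and the fit with the replicate number as a block gave 1, Hoxa3 at -0.85 (adjusted p = 0.0471). For the change of the Foxl2 effect with Wnt4, limma called 0 Hox genes (1 at an unadjusted p under 0.05), where 0.379% of all genes were called. The Wnt4-null arm of that test started from Foxl2+/- ovaries and the other from ovaries not so labelled. By the labels the Foxl2 step thus differs between the arms.

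Other cells moved with the Wnt4-null Hox genes too. Stroma markers rose in 3 of 3, and their summed signal was 25.5 to 28.7 against 8.49 to 13.3 in P0 ovaries. Adrenal cortex markers rose in 2 of 4, Cyp21a1 by 6.16 and Cyp11b1 by 4.65, with sums of 2.83 to 6.36 against 0.122 to 0.25. Germ cell markers fell in 3 of 4 (Pou5f1, Dazl and Dppa3), Leydig markers rose in 2 of 3 and Sertoli markers in 2 of 4. Fetal ovary somatic markers fell in 4 of 5, with sums of 8.86 to 10.5 against 22.1 to 25.0, and 1 of 5 endothelial markers rose, Cdh5, with sums of 8.10 to 8.54 against 3.97 to 4.90. Over all genes 16.9% were called in this comparison, and 1 of 5 is near that share. The part of these cells in the change of Hoxd8 and Hoxd9 was not tested. Hoxd8 kept its call without any array. Hoxd9 lost it without ovary arrays 2 or 3 or Wnt4-null arrays 1 or 3 (adjusted p up to 0.138), and Hoxc6 without ovary array 2 or Wnt4-null arrays 2 or 3 (up to 0.376). Hoxc6 also lost its call with a pseudocount of 5% of the mean, quantile normalization, the comparison fitted alone and the replicate block. The count of 3 became 5 without ovary array 1 and 1 without Wnt4-null array 3. Against the testis, Hoxb9 lost its call without testis arrays 1 or 2 or Wnt4-null arrays 1 or 2 (up to 0.138).

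From E16 to P0 in the ovary, 10 Hox genes fell and 0 rose. The 10 of 33 are a share near that of all genes called in this comparison, 30.9%, so the count does not set the Hox genes apart. The falls were Hoxc6 by 1.80 ± 0.28, Hoxb1 by 1.65 ± 0.46, Hoxd3 by 1.58 ± 0.35, Hoxc5 by 1.37 ± 0.31, Hoxd1 by 1.32 ± 0.39, Hoxd10 by 1.26 ± 0.29, Hoxc4 by 1.20 ± 0.17, Hoxc8 by 1.13 ± 0.33, Hoxa3 by 1.04 ± 0.40 and Hoxd8 by 0.66 ± 0.17. The adjusted p ran from 4.12e-06 for Hoxc4 to 0.048 for Hoxa3. The means of Hoxb1, Hoxd1 and Hoxd3 lay under the olfactory reference at both ages, so the sizes of their falls are not measured folds. All 7 measured Hoxc genes were lower, with a median of -1.13, among them Hoxc13, which lay under the olfactory reference in every group. Of all 33 Hox genes 29 were lower, with 8 of 9 Hoxa and 8 of 9 Hoxb genes among them.

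The scaling bears on this comparison. The median of all genes was -0.27 from E16 to P0 as deposited and -0.01 after quantile normalization. Over the Hox genes it was -0.67 as deposited and -0.22 after it. Relative to the median of all genes, the Hox median was thus lower under both. With quantile normalization 8 Hox genes fell and 1, Hoxa7, rose. Hoxa3 and Hoxd1 were the calls lost.

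Hoxc4, a gene of neck and upper thorax, gave 2.18, 2.23 and 2.02 at E16 and 0.845, 0.783 and 1.20 at P0. Hoxc6, which acts in the thorax and mammary region, gave 0.626, 0.608 and 0.895 and then 0.241, 0.122 and 0.244. Hoxc5 gave 0.757, 0.726 and 0.617 and then 0.357, 0.196 and 0.261. In all 3 the newborn ovaries were below the lowest E16 ovary. Hoxc8, which specifies brachial motor neurons, gave 1.46, 1.11 and 1.28 and then 0.682, 0.435 and 0.645. Hoxd10 gave 1.48, 1.70 and 1.25 at E16, Hoxd3 0.224, 0.207 and 0.172, and Hoxd8 2.89, 3.21 and 3.24, all above their newborn values given with the sexes. Hoxa3 gave 1.52, 1.46 and 1.87 at E16, Hoxd1 0.105, 0.101 and 0.0859 and Hoxb1 0.0629, 0.0569 and 0.159. Other probe sets of Hoxc6 fell by 1.10 and 1.85 and those of Hoxc5 by 1.48 and 1.3, and a probe set shared by Hoxd4 and Hoxd3 fell by 1.56.

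Hoxd9 did not follow: it gave 5.92, 5.74 and 5.09 at E16, against 8.51, 5.90 and 5.97 at P0. Hoxa3 lost its call without any E16 array or P0 arrays 2 or 3 (adjusted p up to 0.223), Hoxb1 without E16 array 3 (0.0826), and Hoxc8 and Hoxd1 without P0 array 2 (0.0685 and 0.0534). Hoxc4, Hoxc5, Hoxc6, Hoxd3, Hoxd8 and Hoxd10 kept theirs in every alternative in which they were measured. Over the same interval 2 of 4 germ cell markers rose (Dppa3 and Pou5f1), and their summed signal went from 6.72 to 10.1 at E16 to 27.1 to 56.8 at P0. Fetal ovary somatic markers fell in 3 of 5 (Fst, Bmp2 and Wnt4; sums of 23.7 to 27.0 and then 22.1 to 25.0), striated muscle markers in 3 of 8 (4.08 to 4.49 and then 2.09 to 2.42) and adrenal cortex markers in 2 of 4 (0.315 to 0.584 and then 0.122 to 0.25). Over all genes 30.9% were called in this comparison, and 3 of 8 is near that share. The part of these cells in the Hox change was not tested.

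Between E13 and E16 limma called 0 Hox genes in the ovary (4 at an unadjusted p under 0.05), where 9.02% of all genes were called. The E13 ovaries were labelled Foxl2+/- and the E16 ovaries were not, so by the labels age and Foxl2 dose cannot be told apart. The count was 2 without ovary E13 array 1 (Hoxa4 and Hoxb9, both higher at E16), 1 without E16 array 1 and 2 with array weights. At E13, Hoxc4 gave 2.05, 1.76 and 1.75, Hoxc6 0.701, 0.701 and 0.582, Hoxc5 0.82, 0.503 and 0.327 and Hoxc8 1.31, 0.995 and 0.676. Every one of these was at or above the lowest, and for Hoxc4 and Hoxc6 above the highest, newborn ovary.

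In the testis, from E13 to P0, Hoxc6 fell by 1.03 ± 0.28, Hoxd3 by 1.05 ± 0.35, Hoxc5 by 0.91 ± 0.31 and Hoxc4 by 0.52 ± 0.17, and Hoxd1 rose by 1.19 ± 0.39, with both ages under the olfactory reference. These 1 rise and 4 falls came where 22.8% of all genes were called. Hoxc6 went from 0.745, 0.58 and 0.432 to 0.407, 0.228 and 0.221, Hoxc5 from 0.491, 0.613 and 0.615 to 0.397, 0.303 and 0.222, and Hoxc4 from 1.20, 1.45 and 1.83 to 0.989, 1.21 and 0.901, which overlapped by 1 array. All 7 Hoxc genes, with Hoxc13 under the olfactory reference among them, were lower at P0, with a median of -0.52. Of all 33 Hox genes 19 were lower. The newborn testes lacked Wnt4 and the E13 testes were not so labelled, so age and Wnt4 cannot be told apart here. Every call depended on single arrays. The count of 5 became 0 without P0 array 3, 2 without E13 array 1 or E13 array 2 and 3 without E13 array 3. Hoxc4 lost its call without E13 arrays 2 or 3 or P0 arrays 1 or 3 (adjusted p up to 0.221), Hoxc5 without E13 arrays 2 or 3 or P0 arrays 2 or 3 (0.184), Hoxc6 without E13 array 1 or P0 arrays 2 or 3 (0.0659), Hoxd1 without the same 3 (0.178), and Hoxd3 without E13 arrays 1 or 2 or P0 arrays 2 or 3 (0.111).

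In newborn KitWvWv ovaries, Hox genes called higher than in newborn ovaries were Hoxc4 by 1.26 ± 0.17, Hoxc6 by 1.52 ± 0.28, Hoxc8 by 1.26 ± 0.33, Hoxc9 by 0.94 ± 0.26, Hoxa3 by 1.33 ± 0.40, Hoxc10 by 1.0 ± 0.32, Hoxb6 by 1.84 ± 0.60, Hoxd8 by 0.47 ± 0.17 and Hoxa9 by 1.37 ± 0.50, and the last of the 10 was Hoxb4 at 1.20 ± 0.44. Hoxd1 fell by 1.43 ± 0.39, with both groups under the olfactory reference. These 10 rises and 1 fall came where 30.6% of all genes were called, a share near that of the Hox genes. Of the 7 Hoxc genes 5 rose, and all 9 Hoxb genes were higher, with a median of 0.95 and 2 called. Of these 9, 4 (Hoxb1, Hoxb2, Hoxb7 and Hoxb13) lay under the olfactory reference in every group. Under quantile normalization the calls of Hoxb4, Hoxb6 and Hoxa9 were lost.

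Hoxc4 gave 2.24, 2.08 and 2.40 in KitWvWv ovaries, above the newborn ovaries (0.783 to 1.20) and in the range of E16 ovaries (2.02 to 2.23) and above it. Hoxc6 gave 0.557, 0.536 and 0.626 and Hoxc8 1.43, 1.42 and 1.32, each above every newborn ovary. Hoxc9 and Hoxc10, which specify thoracic and lumbar motor neurons, gave 1.0, 0.789 and 0.757 and 1.55, 0.889 and 1.02, against 0.458, 0.402 and 0.444 and 0.889, 0.282 and 0.682. Hoxc9 was apart and Hoxc10 overlapped at 1 array. Hoxa3 gave 3.02, 1.79 and 1.42, Hoxd8 2.54, 2.79 and 2.85 and Hoxc5 0.333, 0.361 and 0.471. Hoxc5 changed by 0.53 ± 0.31 and was not called on its brightest probe set, while its other probe sets rose by 0.88 and 1.39. Hoxd9 gave 5.43, 6.45 and 8.08 and Hoxd10 0.757, 1.28 and 1.05, and neither was called. The second Hoxd8 probe set changed by 0.25 ± 0.18 and was not called.

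**Figure D3:**
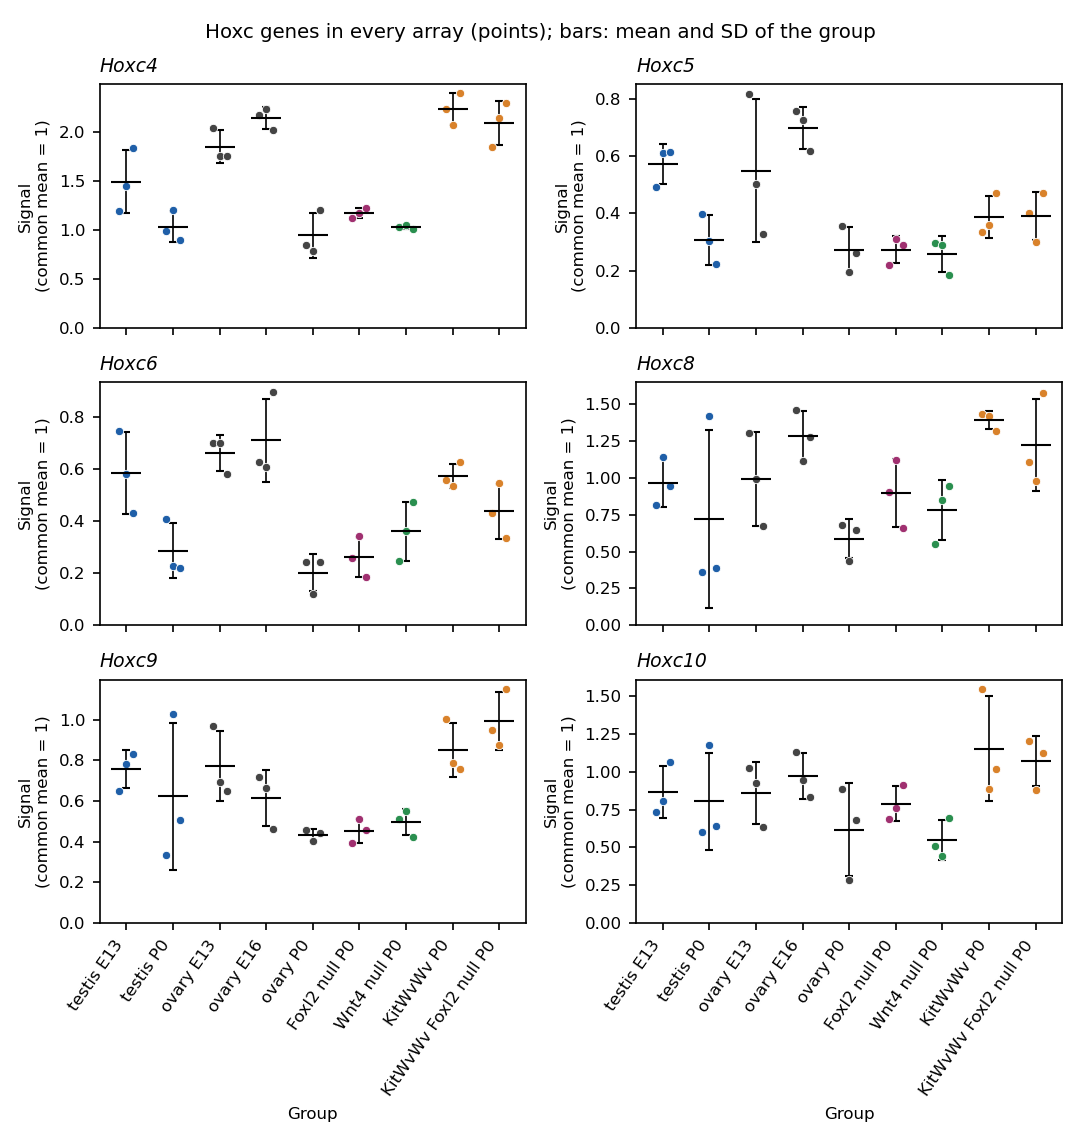
Signal of Hoxc4, Hoxc5, Hoxc6, Hoxc8, Hoxc9 and Hoxc10 (intensity divided by the mean of the array, linear axes from 0) in each array (points) of 9 groups, with the mean and SD of the group. For Hoxc4, Hoxc6 and Hoxc8 the newborn ovaries lie below all E16 and all KitWvWv ovaries.

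The comparison of KitWvWv with newborn ovaries and that of newborn with E16 ovaries share the 3 newborn arrays, so a gene low in those arrays moves in both. The same arrays also serve the comparisons with testes and with Wnt4-null ovaries. All 4 germ cell markers fell in KitWvWv ovaries, with a median of -3.93 and a summed signal of 1.36 to 7.33 against 27.1 to 56.8. Markers of somatic cells rose alongside: 3 of 5 endothelial, 3 of 5 fetal ovary somatic, 2 of 5 gonadal somatic identity, 2 of 4 Sertoli and 1 of 3 stroma markers. Over all genes 30.6% were called, and 2 of 5 and 1 of 3 are near that share. The median of all genes was 0.23 in this comparison and 0.05 after quantile normalization, and that of the Hox genes 0.72 and 0.49. The part of cell composition in the Hox change was not tested.

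Hoxc4, Hoxc6, Hoxc8 and Hoxc9 kept their calls in every alternative in which they were measured. Hoxa3 and Hoxd8 lost theirs with the mean over probe sets. Hoxc10 and Hoxd8 lost theirs with the comparison fitted alone and with the replicate block. The count of 11 became 5 without newborn ovary array 2 and 7 without any 1 KitWvWv array. Hoxa3 and Hoxc10 lost their calls without ovary array 2 or KitWvWv array 1 (adjusted p up to 0.102 and 0.267), Hoxa9 without ovary arrays 2 or 3 or KitWvWv arrays 2 or 3 (0.155), Hoxb6 without ovary arrays 2 or 3 or KitWvWv arrays 1 or 3 (0.162), Hoxb4 without ovary arrays 2 or 3 or any KitWvWv array (0.146), Hoxd8 without ovary arrays 1 or 2 or any KitWvWv array (0.116), and Hoxd1 without KitWvWv array 2 (0.0581). The KitWvWv group was Foxl2+/- and the newborn ovaries were not so labelled. Adding loss of Foxl2 to KitWvWv gave Hoxc4 values of 1.85, 2.14 and 2.30, and limma called 0 Hox genes (0 at an unadjusted p under 0.05), where 1.14% of all genes were called. Array weights gave 1.

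Loss of Foxl2 alone left the Hox genes uncalled at every age. By the labels the E13 controls were Foxl2+/-, so at E13 null ovaries were set beside heterozygous ones. At E13 limma called 0 of 33 (5 at an unadjusted p under 0.05), where 1.4% of all genes were called. At E16 it called 0 (0 at an unadjusted p under 0.05), where 0.66% were called, and at P0 0 (0), where 0.825% were called. For the mean of the 3 effects it called 0 (2 at an unadjusted p under 0.05), where 1.86% were called, and the changes of single genes lay between -0.88 and 0.59 with a median SE of 0.23. By the labels that mean joins an E13 step from Foxl2+/- controls with E16 and P0 steps from controls not so labelled. Foxl2+/- ovaries of E16 gave 0 (1 at an unadjusted p under 0.05), where 0.0055% of all genes were called. Hoxd8 was 2.47, 2.28 and 3.90 in Foxl2-/- ovaries of E13, 2.67, 2.92 and 2.90 at E16 and 2.45, 2.43 and 2.44 at P0. Only at P0 were these apart from the controls, by 0.31 on average, and the change was not called.

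The smallest adjusted p for Foxl2 was that of Hoxb9 at E13, 0.0625, for a change of 1.26 ± 0.37 from 0.2, 0.125 and 0.059 to 0.515, 0.282 and 0.165. Without ovary array 1 the count at E13 was 1 (Hoxb9), without Foxl2-/- array 3 it was 3 (Hoxb4, Hoxb9 and Hoxb13), with array weights 3 and with quantile normalization 1 (Hoxb9). With array weights the mean of the 3 effects gave 1. A dimmer probe set of Hoxd13 rose by 1.68 ± 0.41 at E13 (adjusted p = 0.026) while the brightest did not pass. The same probe set was also higher in the P0 testis, by 1.82 ± 0.41.

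Single gonads stood apart in the posterior Hoxa genes, which was noticed after the values were seen. Hoxa9, Hoxa10 and Hoxa11, known from blood formation, the uterus and the kidney, gave 1.62, 0.751 and 0.403 in Foxl2-/- E13 array 1, against 0.296 and 0.676, 0.0940 and 0.275, and 0.0605 and 0.0622 in the other two. In the same array Six2, a marker of kidney progenitors, was 3.44 and at most 0.156 in any other array of the series. Testis P0 array 2 gave 1.93, 0.608 and 0.372 for the same 3 genes, against 0.215 and 0.351, 0.0433 and 0.0443, and 0.0316 and 0.0313. There Six2 was 0.0844, and Cdh16, a marker of duct and tubule epithelium, was 0.439 against 0.0696 and 0.102. Hoxc8 in that array was 1.42, against 0.364 and 0.387. Hoxa9, Hoxa10 and Hoxa11 were not called in any comparison of these groups, and the part of attached tissue was not tested.

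The labels describe the gonads as freed of adjoining tissue, and duct markers were low but not absent. Of 10 fixed markers of mesonephric duct and tubule 8 were measured, and their summed signal was 0.678 to 2.16 in E13 ovaries, 1.33 to 1.61 in E16 ovaries, 0.651 to 1.05 in P0 ovaries, 0.491 to 1.20 in E13 testes and 0.307 to 0.771 in P0 testes. It was 0.463 to 0.518 in the Wnt4-null and 0.947 to 1.23 in the KitWvWv ovaries of P0, and 0.821 to 1.68 in the Foxl2-/- ovaries of E13. Over all arrays Sim1, Wnt7a and Wnt9b stayed at or under 0.15, Gata3 reached 0.318, Lhx1 0.851, Cdh16 0.958, Calb1 0.964 and Pax8 1.01. Calb1 and Gata3 were listed near 0 in some arrays. The testis was lower in 3 of 8 at both ages (Gata3, Calb1 and Pax8), and higher in 1 at E13, Lhx1 by 2.28, and in 0 at P0. Over all genes 8.14% were called at E13 and 28.9% at P0, so the P0 count is near the share. The part of the duct markers in the Hox differences was not tested. In Wnt4-null ovaries of P0 1 of 8, Calb1, fell, where 16.9% of all genes were called. In KitWvWv ovaries none of the 8 was called by limma (0 at an unadjusted p under 0.05), where 30.6% of all genes were called. From E16 to P0 2 of 8 fell, Calb1 and Wnt9b, where 30.9% of all genes were called.

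Across the 15 groups the Hoxc genes had alike patterns, as did the 1 Hoxb pair. Among the 13 genes above the olfactory reference everywhere, the correlation of group means was 0.74 at the median over 20 pairs within a cluster, with a range of 0.34 to 0.94. Over 58 pairs from different clusters it was 0.36, with a range of -0.58 to 0.86. The highest was Hoxc4 with Hoxc8, at 0.94. Most of the 20 pairs within a cluster, 15, were of Hoxc genes, and these ran from 0.64 to 0.94 with a median of 0.77. The 1 Hoxb pair, Hoxb3 with Hoxb4, was at 0.84. The 3 Hoxd pairs ran from 0.40 to 0.62, and the 1 Hoxa pair, at 0.34, lay below the median of pairs from different clusters. These are Pearson correlations of 15 points that share the scaling of their arrays and are given as a description. The E15 groups, of another strain background, are among the 15. Across the 33 genes Spearman's rho of the change with paralogue number ran from -0.35, for the change of the sex difference, to 0.31, for the sexes at E13. It was 0.13 for testis against ovary at P0, 0.31 for testis against Wnt4-null ovary, 0.09 for the newborn against the E16 ovary, -0.33 for Wnt4-null and -0.24 for KitWvWv ovaries of P0.

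**Figure D4:**
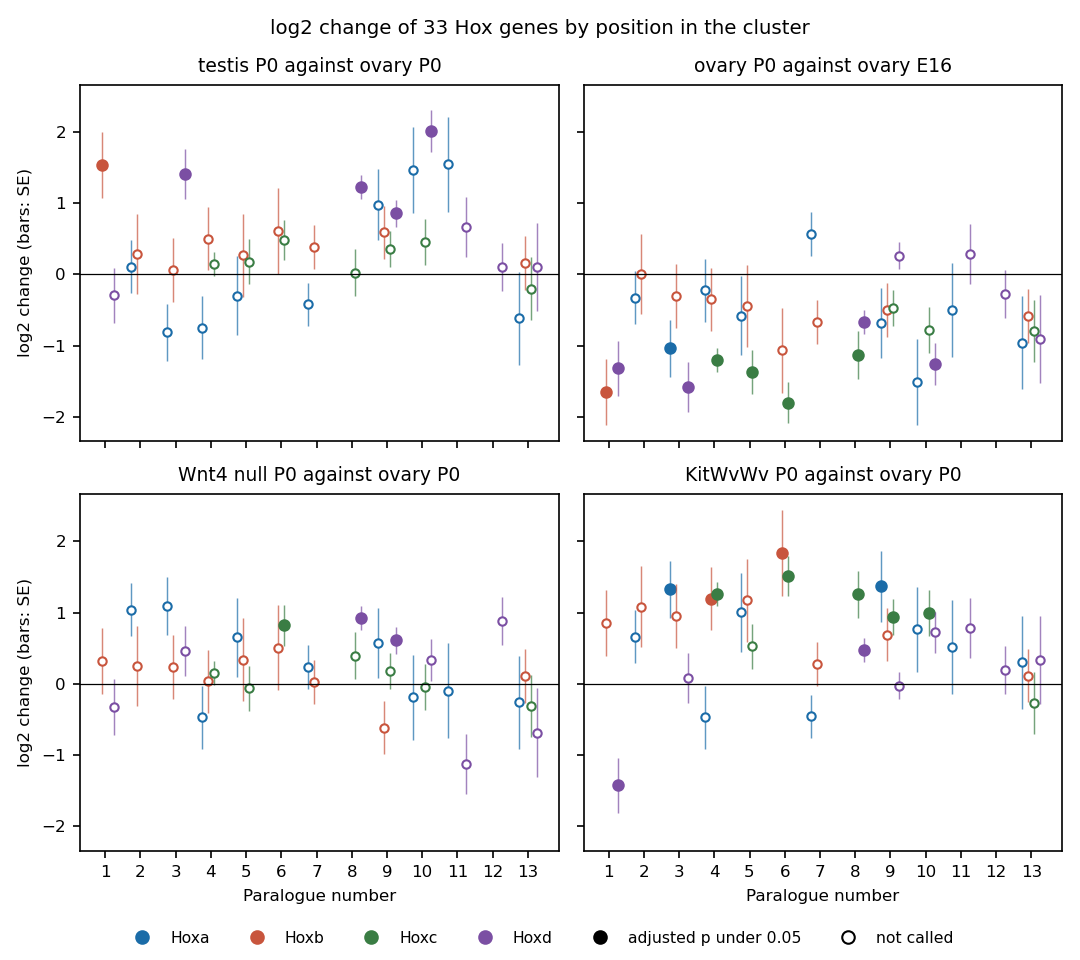
log2 change with its SE (vertical) of the 33 Hox genes by paralogue number (horizontal), coloured by cluster, in 4 comparisons; filled points have an adjusted p under 0.05. In the comparison of testis and ovary at P0 the filled points are mostly Hoxd, and in the newborn against the E16 ovary all filled points lie below 0.

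Partners and regulators of Hox proteins were followed by fixed lists. The TALE cofactors (PBX, MEIS and PKNOX), which bind DNA together with Hox proteins, had 8 of 9 measured. From E16 to P0 4 fell and 0 rose, where 30.9% of all genes were called, with a median of -0.85, among them Meis1 by 1.21, Meis3 by 0.92 and Pbx3 by 0.94. In KitWvWv ovaries, where 30.6% of all genes were called, 3 rose, Meis3 by 1.3, Meis1 by 0.97 and Pbx2 by 0.59. Wnt4-null ovaries of P0 had 2 higher, Pknox2 by 1.10 and Meis1 by 0.86, where 16.9% of all genes were called. In the testis Pknox2 rose at E13 and at P0, by 0.67 and 0.78, and Pbx3 and Pbx4 fell at E13, by 1.49 and 1.33. Between the sexes 8.14% of all genes were called at E13 and 28.9% at P0.

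Of 20 measured Polycomb and trithorax regulators, which keep Hox genes silent or active, 8 fell and 0 rose in the P0 testis, where 28.9% of all genes were called, among them Jarid2 by 0.90 and Phc1 by 0.68. From E16 to P0, where 30.9% of all genes were called, 2 rose (Eed by 0.88, Jarid2 by 0.50) and Kmt2a fell by 0.65. In KitWvWv ovaries 3 rose and 5 fell, where 30.6% of all genes were called, and Eed fell by 1.20. Of the 17 genes next to the clusters, 2 rose and 3 fell in the P0 testis, a share near the 28.9% of all genes called. Around the Hoxd cluster, 0 of Evx2, Lnpk, Mtx2 and Atf2 were called in the P0 testis. From E16 to P0 3 of 17 rose and 4 fell, where 30.9% of all genes were called. Their median was -0.28, against -0.27 over all genes. In KitWvWv ovaries 5 of the 17 fell and 0 rose, Skap2 by 2.16 and Mtx2 by 0.78 among them. That share is near the 30.6% of all genes called, so the count does not set these genes apart. Of the 4 axial inducers (Cdx1, Cdx2, Cdx4 and Gdf11), which start Hox expression in the tail bud, 1 fell in the testis at E13, Cdx2, and 1 at P0, Cdx4. The shares of all genes called there were 8.14% and 28.9%. Cdx4 was at most 0.0634 in any array, under the olfactory reference of every group (0.0811 or more), so its fall is one of low signal.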

How the data were processed

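RNA of 43 gonads was hybridised to Affymetrix MOE430 v.2 arrays, 1 mouse per array. Per the labels, the authors summarised each probe set with plier in R and scaled every array to 1 global mean, and they deposited the resulting intensity unlogged. The role of GCOS 1.3, named in the submitters' processing notes, and the genome build are not given in the sources used here. Of 45071 probe sets, 64 controls were left out. Of the 45007 others, 34927 carried 1 gene symbol, 930 several and 9150 none.

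Intensities were divided by the common mean for printing. For tests, 1% of that mean was added and log2 taken, so changes of dim genes are understated. One limma fit (version 3.58.1, R 4.3.3) of the 15 group means gave 18 comparisons, with moderated variances and Benjamini-Hochberg adjustment over all 45007 probe sets, and intervals are 95%. For each of 18184 genes the brightest probe set with 1 symbol was used. Summaries were made in Python 3.11.15. All called Hox genes were named, or the 10 of smallest adjusted p with the rest by count or range. Members and lists were chosen with earlier results of these data known. P-values measure the spread between mice, and the number of arrays limits the precision.

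Alternatives were other pseudocounts, quantile normalization, array weights, no dim probe sets, the mean over probe sets, each comparison fitted alone, a replicate block and each array left out. On simulated data over 45007 probe sets, for testis against ovary at E13, 30 of 100 changes of 1 and 87 of 100 of 2 on the log2 scale were recovered, with 3 false among 120 calls. At E15, with 2 arrays per group, 19 and 72 of 100 were, with 6 false among 97. Only in the Foxl2 comparison of E13 did all 3 same-numbered pairs deviate together, with correlations of 0.132, 0.135 and 0.158. Single pairs elsewhere were as high, such as 0.196 for number 3 of Foxl2+/- against control at E16. The numbers were taken to pair arrays only in the E13 comparison, and the main fit used no pairing.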

Additional observations from a re-analysis of the deposited data

Results flagged for a closer look

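For Hoxd1 the difference between testis and ovary changed from E13 to P0 by 2.51 on the log2 scale, by limma's interaction term. In all 4 groups the probe set lay under the olfactory reference, so no measured fold stands behind the value. Leaving out dim probe sets removed Hoxd1 itself, so that alternative could not test the call. The P0 testes lacked Wnt4, and age and Wnt4 cannot be told apart in this difference.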

How the results depend on the processing

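Of 43 calls of single Hox genes, 20 held in every alternative in which they were run and 23 were lost in at least 1. Of 639 values, 539 kept direction and side of the threshold, 100 lost significance and 0 reversed. For the counts of called genes that moved, the cause was not tested. With array weights the count was 8 for testis against ovary at E13, 2 for ovary E13 to E16, 3 for Foxl2 loss at E13, 1 for its mean effect, 7 for Wnt4 loss at P0, 1 for Foxl2 loss in Wnt4-null ovaries and 1 in KitWvWv ovaries. Without dim probe sets, which leaves fewer genes tested, it was 3 for the sexes at P0, 0 for the change of the sex difference, 1 for ovary E13 to E16 and 3 for testis E13 to P0. Quantile normalization gave 1 for Foxl2 loss at E13. For testis P0 against Wnt4-null ovary the mean over probe sets gave 7, and leaving out the Foxl2-/- E13 arrays, an alternative chosen after seeing the data, gave 7. The latter gave 1 for ovary E13 to E16. Testis E13 to P0 fitted alone gave 3.

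With the replicate number as a block, the count was 3 for testis E13 to P0 and 1 for Foxl2 loss in Wnt4-null ovaries. It stayed 0 for Foxl2 loss at E13, where the numbers were taken to pair the arrays. Elsewhere the arrays were taken to share only a number, and the block gave 6 for the sexes at E13, 12 for ovary E16 to P0, 9 for KitWvWv and 3 for Wnt4 loss at P0.

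Leaving out 1 array at a time gave counts of 1 to 4 for the sexes at E13, 4 to 9 at P0, 3 to 6 against the Wnt4-null ovary, 0 to 2 for ovary E13 to E16, 7 to 11 for E16 to P0, 0 to 5 for the testis, 0 to 3 for Foxl2 loss at E13, 1 to 5 for Wnt4 loss at P0 and 5 to 11 for KitWvWv.

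Against the 99th percentile of the olfactory probe sets, 13 Hox genes lay above in Foxl2-/- E16, Wnt4-null P0 and testis P0, 12 in Wnt4-null E15 and 11 in Wnt4-/- Foxl2-/- P0. Against the median of all probe sets, 11 did in ovary E15, 13 in Foxl2-/- E16, 12 in ovary P0, 12 in Wnt4-null E15 and 14 in Wnt4-null P0. Signals near the olfactory reference limit what can be said of the dim genes.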
